A study of Arabidopsis thaliana with 24 samples.

Results

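The last interval of a seed maturation series was examined here: the step from 18 to 20 days after pollination (DAP) in seeds of the Arabidopsis thaliana ecotype Col-0. All 6 arrays of 20 DAP were set against all 6 arrays of 18 DAP, with the RNA fraction as a covariate, so that 12 of the series' 24 arrays and all 27827 loci entered the comparison. Each stage held 3 arrays of total RNA and 3 of polysomal RNA, the transcripts that sediment with several ribosomes. Every seed sample was of untreated wild type, and each replicate came from a bulk of 8 plants in a randomized block planting, so that an array averages over plants and over the embryo, endosperm and seed coat of whole seeds. The labels do not say whether a total and a polysomal array of the same number shared a seed harvest. The earlier stages were 12 DAP, which enters only an alternative setting, and 15 DAP, which serves as the step before. That step, from 15 to 18 DAP, is longer than the last, and no difference was scaled to days.

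Late in maturation an Arabidopsis seed has laid down its storage proteins and oil, acquires tolerance of drying, and goes into a dry, dormant state. Late embryogenesis abundant (LEA) proteins, raffinose sugars and small heat shock proteins, which hold unfolding proteins in solution, accumulate in this phase and are thought to protect the drying cells. The programme is driven by transcription factors such as ABI3, FUS3 and ABI5 together with the hormone abscisic acid, and DOG1 sets the depth of dormancy. Transcripts on polysomes are commonly taken as those under translation, and a mature seed keeps many transcripts in store that are not translated.

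The arrays carried the signature of maturing seeds at both stages. The median level of 13 storage protein genes lay between 10.64 and 11.48 on the log2 scale over the 12 arrays, that of 9 oil body genes between 10.49 and 10.70, and that of 35 LEA genes between 10.46 and 11.11. Marker lists for the fruit wall (silique valve and replum, 6 loci) and the endosperm (11 loci) had medians of 1.90 to 2.99 and 1.88 to 2.61, near the dim end of the arrays. The replicate spread differed between the fractions, with a median SD per locus of 0.301 and 0.258 in total RNA at 18 and 20 DAP against 0.175 and 0.193 in polysomal RNA.

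Seeds of 20 DAP differed little from seeds of 18 DAP. No locus passed the test: limma called 0 of 27827 loci (0%) at an adjusted p of 0.05, and the smallest adjusted p was 0.0565. At an unadjusted p under 0.05 there were 1650 loci (5.93%), 994 of them higher (3.57%) and 656 lower (2.36%) at 20 DAP. The median locus differed by 0.0115 log2 units, 7 loci (0.0252%) differed by over 2-fold and 532 (1.91%) by over 1.41-fold.

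The precision of this result can be read from the intervals. For 26984 loci (97%) the whole 95% interval of the difference lay within 1 log2 unit of 0, which is a 2-fold change, and for 15193 loci (54.6%) it lay within 0.5. The interval reached a median of 0.344 to either side of the estimate, and 0.255 for the brightest loci against 0.428 in the second dimmest of 4 groups ranked by level. A change of 2-fold was therefore outside the interval for nearly all loci, and smaller changes lay inside it for many. A variance estimate that follows the level of the locus (limma with an intensity trend and a robust prior) called 13 loci, 7 higher and 6 lower, which are marked as such below.

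The 2 lowest p values of the comparison belonged to transcripts of small heat shock proteins. ATHSP22.0, whose product is a small heat shock protein of the endoplasmic reticulum, stood at 4.91, 4.43 and 4.32 in total RNA at 18 DAP and at 5.91, 5.89 and 5.89 at 20 DAP. In polysomal RNA its levels were 4.87, 4.64 and 5.09 at 18 DAP and 5.84, 5.57 and 6.10 at 20 DAP. Every array of 20 DAP was above every array of 18 DAP in both fractions, a separation shown by 173 of all loci upwards (0.622%) and by 81 downwards (0.291%). The pooled log2 difference was 1.16 ± 0.14 (SE, 6 arrays per stage), or 2.23-fold, with a 95% interval of 0.85 to 1.47. Its adjusted p of 0.0565 missed the threshold, which it passed with the intensity trend (0.00481) and without the second polysomal array of 20 DAP (0.0399, at 1.24).

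HSP17.6II, a cytosolic class II small heat shock protein, showed the same separation at a higher level. Total RNA gave 7.26, 7.39 and 7.10 at 18 DAP and 8.11, 8.09 and 8.16 at 20 DAP. Polysomal RNA gave 7.20, 6.97 and 7.31, then 7.93, 7.68 and 8.13. No array of one stage reached the range of the other, and the log2 difference was 0.81 ± 0.11, with an adjusted p of 0.0805 as planned and 0.00188 with the intensity trend. HSP21, the small heat shock protein of plastids, and HSFA2, a heat stress transcription factor, differed by 0.63 ± 0.18 and 0.41 ± 0.12, with adjusted p values of 0.668 and 0.738. HSP21 levels overlapped between the stages in total RNA, where the second array of 18 DAP stood at 4.80 against 4.49 to 4.87 at 20 DAP.

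**Figure D1:**
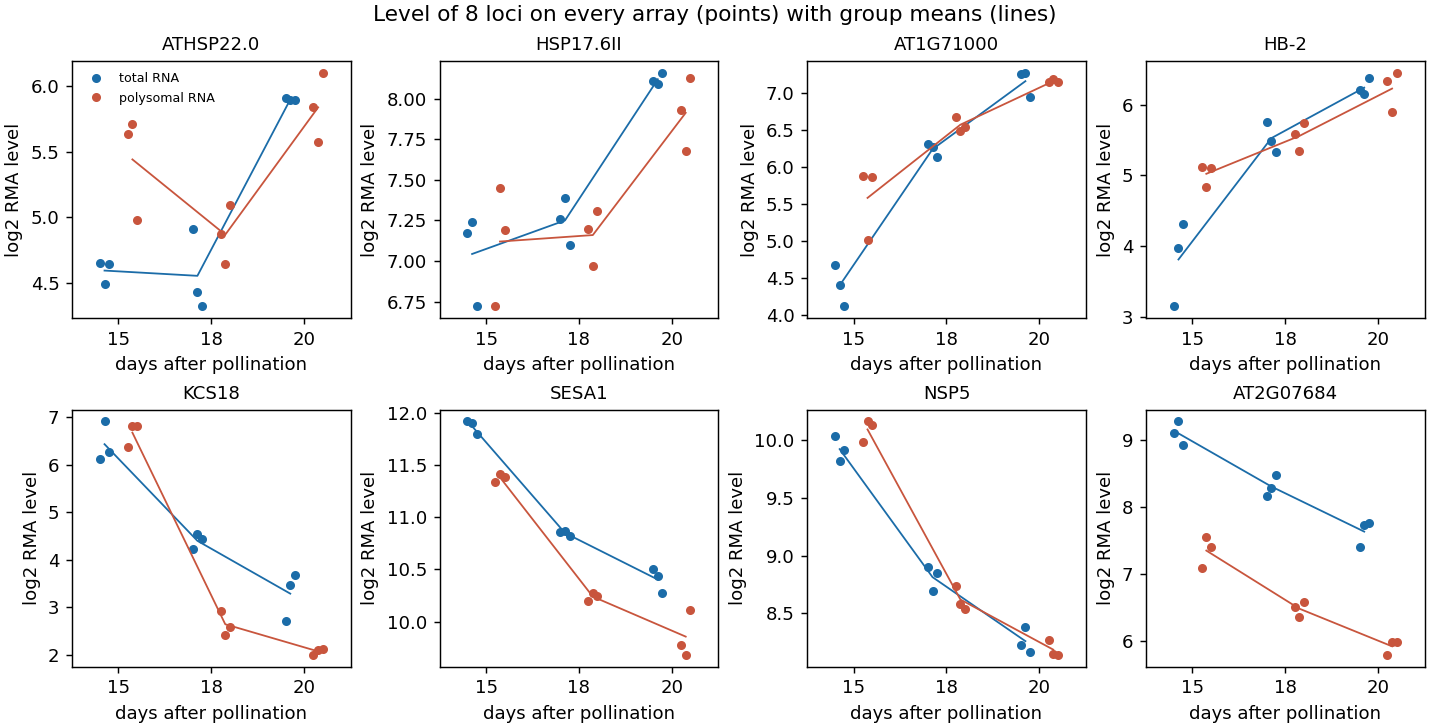
Level of 8 loci on every array of 15, 18 and 20 DAP (log2 RMA values, vertical axes) against days after pollination (horizontal axes), with total RNA in blue and polysomal RNA in red; points are arrays, shifted sideways to be visible, and lines join group means. ATHSP22.0 and HSP17.6II had no called change between 15 and 18 DAP and stood higher on all arrays of 20 DAP, while AT1G71000, HB-2, KCS18, SESA1, NSP5 and AT2G07684 continued in the direction of the step before.

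Over the whole list of 25 heat shock proteins and factors the median difference was 0.163, against 0.0115 for all loci. Above 0 lay 21 of the 25, as did 14596 of all 27827 loci. At an unadjusted p under 0.05, 9 were higher (36.0%, against 3.57% of all loci) and 0 lower, and limma called none after adjustment. The lists and their members were chosen with earlier results of these data known. These shares, and those of the lists below, therefore describe the lists and are not a test of them. The arrays of the stages were apart in both fractions for 4 of the 25 members, all higher, as they were upwards for 0.622% of all loci. These 4 were ATHSP22.0, HSP17.6II, AT2G29500 and HSP23.6-MITO, the last being a small heat shock protein of mitochondria. With each fraction fitted alone, 2 members in total RNA and 9 in polysomal RNA were higher at an unadjusted p under 0.05. Of all 27827 loci, 1288 and 1601 passed that threshold in these fits, in either direction. For a difference between the fractions 0 members had an unadjusted p under 0.05, against 4.47% of all loci. The median list level was 7.05, 6.99 and 6.94 in total RNA at 18 DAP and 7.15, 7.17 and 7.25 at 20 DAP. In polysomal RNA it was 7.20, 7.05 and 6.99, then 7.50, 7.31 and 7.46, so that neither fraction overlapped. HSFA9, the heat shock factor specific to seeds, differed by 0.04 ± 0.11. Among the large chaperones of the list, HSP101 and HSP70 had intervals that included 0. HSP90.1, another of them, had mean levels of 10.565 at 18 DAP and 10.703 at 20 DAP in total RNA. In polysomal RNA its means were 10.514, then 10.701. Whether large and small heat shock proteins differed in this step was not tested.

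In the step before, 12 of these 25 members fell and 1 rose between 15 and 18 DAP, where 9.34% of all loci fell and 12.9% rose. Both steps use the same 18 DAP arrays, so a high or low 18 DAP value moves them in opposite directions. The difference between the steps was tested in its own contrast over 18 arrays, and 7 members passed it (2.25% of all loci did so upwards), all with a more positive last step: HSP17.4, AT1G53540, ATHSP22.0, AT5G37670, AT1G07400, AT2G29500 and AT5G51440. AT1G07400 fell by 1.28 on the log2 scale between 15 and 18 DAP and then stood 0.14 higher, and AT5G51440 fell by 1.11 and then stood 0.16 higher. Of the 7 it was ATHSP22.0 that held the largest last step, after a step before of -0.31 ± 0.15 that was not called (adjusted p of 0.162).

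**Figure D2:**
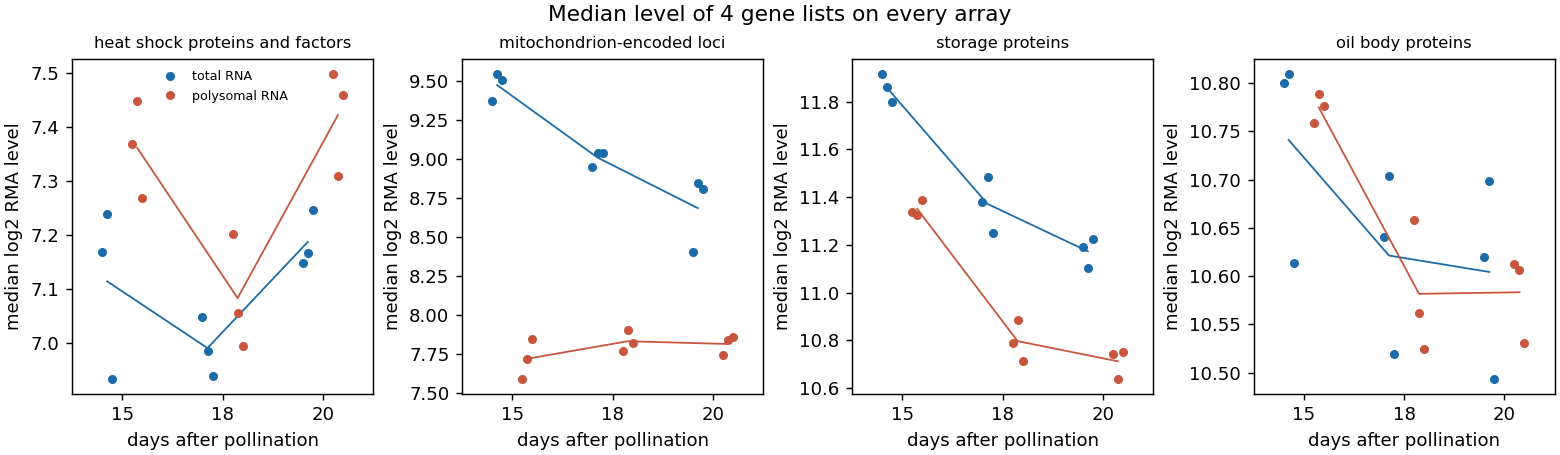
Median level of the heat shock, mitochondrion-encoded, storage protein and oil body lists on each array (log2 RMA, vertical axes) at 15, 18 and 20 DAP, with total RNA in blue and polysomal RNA in red; points are arrays and lines join group means. The heat shock medians of 20 DAP lie above those of 18 DAP in both fractions, the mitochondrial medians are lower at 20 DAP in total RNA, and the oil body medians of 18 and 20 DAP overlap.

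Several other loci among the lowest p values upwards had also risen in the step before. AT1G71000, which the gene table does not name, stood at 6.31, 6.27 and 6.14 in total RNA at 18 DAP and at 7.26, 7.27 and 6.94 at 20 DAP. Its polysomal levels were 6.68, 6.49 and 6.54, then 7.14, 7.19 and 7.14. The stages were apart in both fractions, with a log2 difference of 0.75 ± 0.11 (adjusted p of 0.0887, and 0.00549 with the intensity trend) after a rise of 1.41 ± 0.15 between 15 and 18 DAP.

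HB-2, a homeodomain leucine zipper factor known from the shade response, had a difference of 0.69 ± 0.13 (adjusted p of 0.413). Its total RNA levels were 5.76, 5.49 and 5.33 at 18 DAP and 6.20, 6.15 and 6.37 at 20 DAP, and its polysomal levels 5.58, 5.35 and 5.74, then 6.34, 5.89 and 6.45. All arrays of 20 DAP lay above those of 18 DAP within each fraction, and the step before had been a rise of 1.12 ± 0.17. AT4G21500 differed by 0.62 ± 0.12 after a rise of 1.61 ± 0.14, and AT3G20900 by 0.73 ± 0.13 after a step before that was not called, both with adjusted p values of 0.395 or above.

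With the intensity trend limma also called KAT3, AT2G33830, AT1G12064 and AT1G49475 upwards. KAT3, a regulatory subunit of potassium channels, stood at 7.80, 7.73 and 7.55 in total RNA at 18 DAP and at 8.41, 8.28 and 8.05 at 20 DAP, and at 8.01, 7.85 and 8.13, then 8.32, 8.46 and 8.43, in polysomal RNA. The stages did not overlap and the difference was 0.48 ± 0.10, after a rise of 1.44 ± 0.10 in the step before. AT2G33830, listed in the gene table as a dormancy-associated gene, was bright and steady, so that a difference of 0.38 ± 0.09 kept all arrays apart (10.25 to 10.36 at 18 DAP and 10.55 to 10.86 at 20 DAP over both fractions). AT1G12064 and AT1G49475 differed by 0.45 ± 0.10 and 0.57 ± 0.11.

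CIB1, a transcription factor that binds the blue light receptor cryptochrome, was chosen after its values were seen, for its size. It differed by 0.92 ± 0.18 (adjusted p of 0.427), from 3.86, 4.43 and 3.65 to 4.89, 4.81 and 5.64 in total RNA and from 4.31, 4.46 and 4.45 to 5.33, 4.81 and 5.23 in polysomal RNA. Its arrays were apart in both fractions but spread more widely than those of the loci above.

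KCS18 (also named FAE1), which elongates fatty acids of the seed oil, was named after its values were seen, as the lowest of the 31 loci listed for the making of fatty acids and oil. The list as a whole had a median of 0.0377, with 20 of 31 above 0, 1 higher and 1 lower at an unadjusted p under 0.05 (3.23% each, against 3.57% and 2.36% of all loci). In total RNA it stood at 4.22, 4.54 and 4.44 at 18 DAP and at 2.72, 3.47 and 3.68 at 20 DAP. In polysomal RNA it stood at 2.93, 2.43 and 2.58, then at 2.0, 2.1 and 2.13. The stages did not overlap, and the log2 difference was -0.84 ± 0.17 (adjusted p of 0.452) after a fall of 3.03 on the log2 scale between 15 and 18 DAP. The last step was less negative than the step before by 2.19 ± 0.30 (adjusted p of 0.000586).

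SESA1 and SESA2 encode 2S albumins, small storage proteins. SESA1 stood at 10.86, 10.87 and 10.82 in total RNA at 18 DAP and at 10.50, 10.44 and 10.27 at 20 DAP. Its polysomal levels were 10.20, 10.27 and 10.25, then 9.78, 9.68 and 10.11. All arrays of 20 DAP were lower, by -0.42 ± 0.10 (adjusted p of 0.564, and 0.0135 with the intensity trend). SESA2 differed by -0.41 ± 0.12, apart in total RNA and overlapping in polysomal RNA, where the third array of 20 DAP, at 8.36, lay within the 8.28 to 8.47 of 18 DAP. In whole seeds, fewer cells of a type and less RNA per cell cannot be told apart, and all levels are relative to the other transcripts on an array.

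Within the 13 storage protein genes the median difference was -0.0584, 2 lay above 0, and 3 were lower at an unadjusted p under 0.05 (23.1%, against 2.36% of all loci) with 0 higher. The third was AT2G18540, at -0.30 ± 0.11. The main 12S globulin CRA1 stood at 12.24, 12.22 and 12.11 at 18 DAP and at 12.22, 12.18 and 12.12 at 20 DAP in total RNA, and the stages also overlapped in polysomal RNA (11.98 to 12.09 and 11.93 to 12.13). Its difference was -0.02 ± 0.09, with an interval of -0.21 to 0.17. In the step before, 9 of the 13 fell and 1 rose, against 9.34% and 12.9% of all loci.

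NSP5, a nitrile specifier protein that steers the breakdown of glucosinolates, was among the lowest p values downwards. It had levels of 8.90, 8.69 and 8.85 in total RNA at 18 DAP and of 8.23, 8.38 and 8.17 at 20 DAP. Its polysomal levels were 8.74, 8.58 and 8.54, then 8.27, 8.15 and 8.14. The stages did not overlap, the difference was -0.49 ± 0.10 (adjusted p of 0.414, and 0.0116 with the intensity trend), and the step before had been a fall of 1.29 on the log2 scale. APR2, an enzyme of sulfate reduction called with the intensity trend, differed by -0.49 ± 0.10 with arrays apart in both fractions (adjusted p of 0.452, and 0.0185 with the intensity trend).

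Loci of the mitochondrial genome lay mostly below 0 in total RNA, where 7 of 92 were above 0, against 34 of 92 in polysomal RNA. Of all 27827 loci, 14798 were above 0 in total and 14284 in polysomal RNA. For a difference between the fractions, 1 of the 92 had an unadjusted p under 0.05, against 4.47% of all loci. Over these 92 loci the median difference was -0.129, of which total RNA gave -0.255 and polysomal RNA -0.0593, and 14 lay above 0 with the fractions pooled. At an unadjusted p under 0.05, 9 were lower (9.78%, against 2.36% of all loci) and 2 higher, and limma called none after adjustment. The median level of the list was 8.95, 9.04 and 9.04 in total RNA at 18 DAP and 8.40, 8.84 and 8.81 at 20 DAP, against 7.77, 7.90 and 7.82, then 7.74, 7.84 and 7.86, in polysomal RNA. The first total array of 20 DAP was the lowest, and the polysomal arrays overlapped. Values of 37 of the 92 were identical to those of another locus on the arrays, often a nuclear copy on chromosome 2, so the genome of origin cannot be told for them. The 15 plastid-encoded loci, 12 of which also share their values with another locus, had a median of -0.00808, at -0.104 in total and 0.160 in polysomal RNA. Of these 15, 3 were higher (20.0%, against 3.57% of all loci) and 0 lower at an unadjusted p under 0.05.

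ATMG01340 was the mitochondrial locus with the lowest p, and AT2G07755, a tRNA locus on chromosome 2, carried identical values. The shared levels were 8.39, 8.93 and 8.83, then 8.13, 8.29 and 8.26, in total RNA, and 6.18, 5.94 and 5.80, then 4.87, 4.87 and 5.21, in polysomal RNA. The differences were -0.99 ± 0.18 in polysomal and -0.49 ± 0.18 in total RNA. No locus on the arrays passed the test of a difference between the fractions. The pooled -0.74 ± 0.14 had an adjusted p of 0.413 (0.0294 with the intensity trend). AT2G07684, another chromosome 2 locus, differed by -0.62 ± 0.11 (0.395, and 0.0186 with the intensity trend) and was apart in both fractions. The remaining loci of lowest p downwards, AT5G61997 and AT4G05310, were dim, at mean levels of 2.48 and 3.08 at 18 DAP, and differed by -0.60 ± 0.11 and -0.61 ± 0.11.

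The lists that mark the state of a maturing seed showed small differences with narrow intervals. Over all loci, 54.6% of intervals lay within 0.5 log2 units of 0. The lists given here had median levels of 8.82 to 10.8 at 18 DAP. Such levels fall in the brightest of the 4 groups ranked by level, where intervals were narrower, at a median of 0.255 to either side. Of 9 oil body genes, whose products coat the oil droplets, none had an unadjusted p under 0.05, and all 9 intervals lay within 0.5 log2 units of 0. OLEO1, the main oleosin, had levels of 12.20, 12.12 and 12.04, then 12.08, 12.05 and 12.01, in total RNA and of 11.78, 11.71 and 11.55, then 11.69, 11.77 and 11.72, in polysomal RNA. The stages overlapped, and its difference was -0.01 with an interval of -0.21 to 0.18. Of 35 LEA genes 34 had intervals within 0.5, and differences ran from -0.18 to 0.20. EM1 and EM6 (GEA6 in the gene table), LEA proteins of the late seed, differed by -0.13 ± 0.09 and -0.08 ± 0.09. All 7 genes of raffinose synthesis with the seed peroxiredoxin and all 19 of reserve lipid mobilisation had intervals within 0.5 as well. Of these 19, 10 had risen in the step before, as had 12.9% of all loci.

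**Figure D3:**
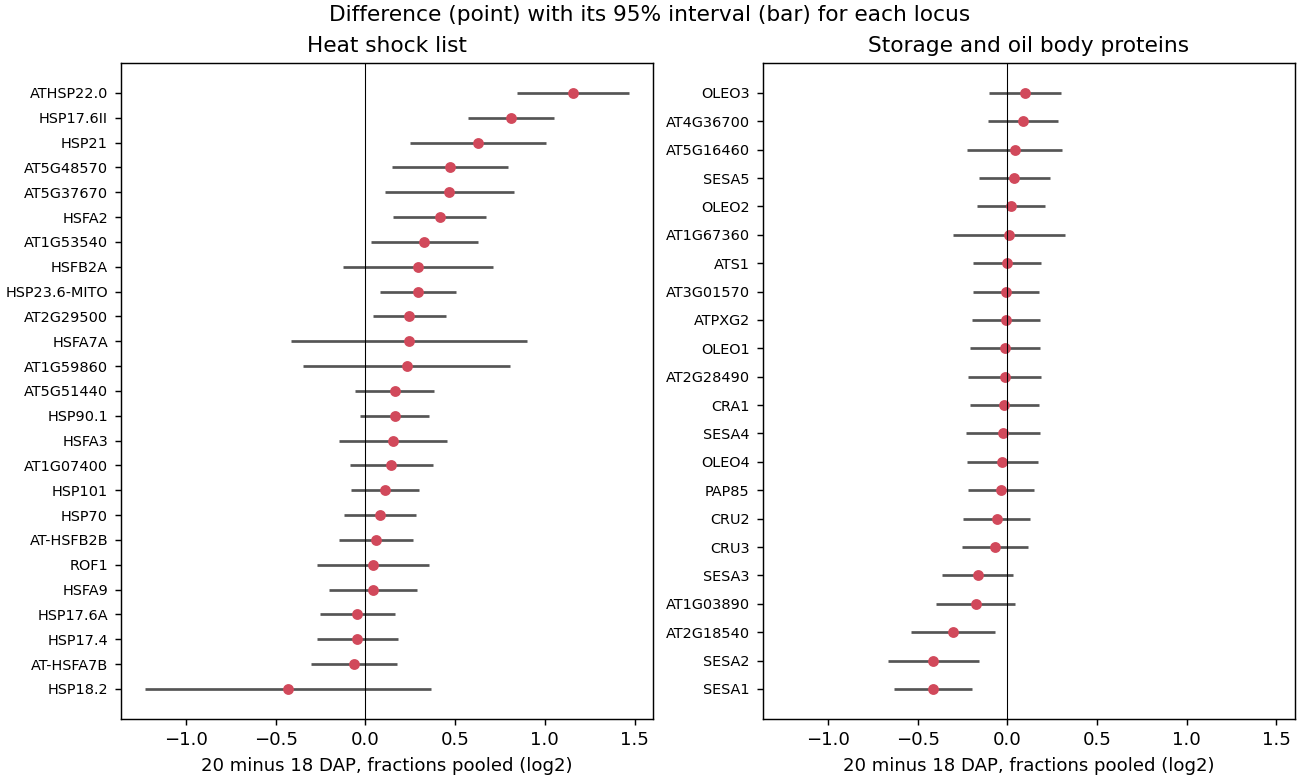
Log2 difference of 20 minus 18 DAP with the fractions pooled (horizontal axes) for the 25 loci of the heat shock list and for the 13 storage and 9 oil body proteins; points are estimates and bars their 95% intervals from limma, with 6 arrays per stage. ATHSP22.0, HSP17.6II and HSP21 lead the heat shock list, SESA1 and SESA2 are the lowest of the storage proteins, and the oil body intervals all include 0.

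Regulators of maturation were near 0. ABI3, ABI5 and FUS3, which switch on reserve and drying genes, differed by 0.01 ± 0.15, -0.03 ± 0.10 and 0.03 ± 0.13. LEC1, which acts earlier in the embryo, differed by -0.09 ± 0.17 and DOG1 by -0.03 ± 0.11. All 5 intervals lay within 0.5 log2 units of 0, as did those of 54.6% of all loci. The widest was -0.45 to 0.28 for LEC1, and the signs turned when single arrays were left out. FUS3 and DOG1 had fallen by 1.73 and 1.71 on the log2 scale between 15 and 18 DAP, and for both the last step differed from the step before (adjusted p of 0.000502 and 8.61e-05). Among 20 maturation factors 1 was higher (5%) and 0 lower at an unadjusted p under 0.05, near the 3.57% and 2.36% of all loci. The higher one was ABI4, an abscisic acid response factor, at 0.34 ± 0.11. Its levels were 4.98, 5.27 and 4.95, then 5.53, 5.40 and 5.40, in total RNA and 5.16, 5.33 and 5.52, then 5.56, 5.55 and 5.82, in polysomal RNA, apart in both.

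Among 45 loci of dormancy and of the hormones abscisic acid and gibberellin 1 was higher (2.22%) and 2 were lower (4.44%) at an unadjusted p under 0.05, near the 3.57% and 2.36% of all loci. For 29 of the 45 the interval lay within 0.5 log2 units of 0, as for 54.6% of all loci, and the highest upper end was 1.18. PIL5, a factor that holds back germination in the dark, was the higher one, at 0.47 ± 0.19. OST1, a kinase of the abscisic acid pathway, and AAO3, which makes the hormone's last precursor into abscisic acid, were the lower ones, at -0.42 ± 0.13 and -0.28 ± 0.12. For the 8 genes of chlorophyll breakdown the count was 2 higher and 2 lower at that threshold (25% each, against 3.57% and 2.36% of all loci). ACD2, which acts after the chlorophyll ring is opened, and HCAR, which turns intermediates of chlorophyll b into chlorophyll a, stood 0.31 ± 0.11 and 0.38 ± 0.17 higher. NYC1, which starts the breakdown of chlorophyll b, and ACD1, which opens the ring, differed by -0.28 ± 0.09 and -0.39 ± 0.15.

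**Figure D4:**
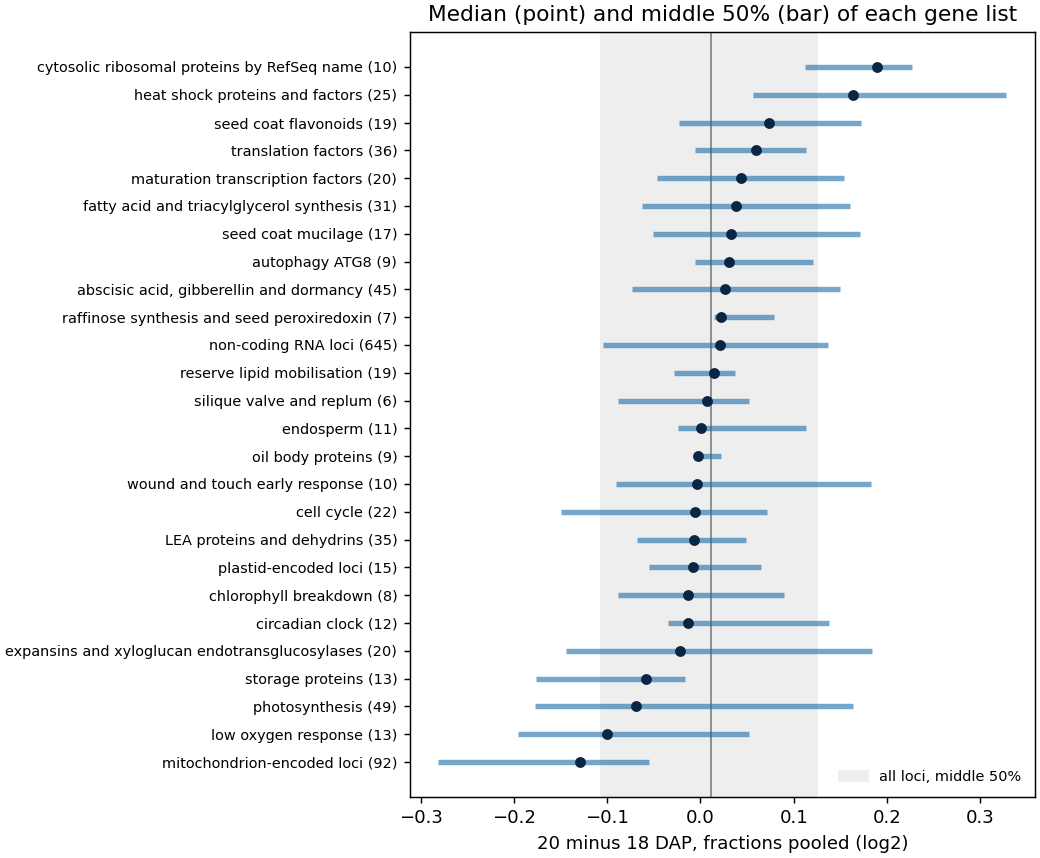
Median (point) and middle 50% (bar) of the log2 difference of 20 minus 18 DAP with the fractions pooled (horizontal axis) for each gene list (vertical axis, number of loci in brackets); the grey band spans the middle 50% of all 27827 loci. The named ribosomal proteins and the heat shock list have the highest medians, at 0.189 and 0.163, and the mitochondrion-encoded loci the lowest, at -0.129.

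Among the other lists, 10 cytosolic ribosomal proteins that carry that name in the gene table had a median difference of 0.189, with 8 above 0 and 3 higher at an unadjusted p under 0.05 (30.0%, against 3.57% of all loci), namely RPL27AB, P40 and PFL at 0.39 ± 0.14, 0.24 ± 0.10 and 0.23 ± 0.10. Most genes of this kind carry no such name there and are not in the list. For 36 translation factors the median was 0.0592 with 0 higher and 0 lower. Photosynthesis, at levels near the dim end, had 1 of 49 higher (2.04%) and 3 lower (6.12%), against 3.57% and 2.36% of all loci. Of 22 cell cycle genes none had an unadjusted p under 0.05. Seed coat flavonoid markers had 2 of 19 higher (10.5%) and 1 lower (5.26%), against the same shares, and the 17 mucilage, 11 endosperm and 6 silique markers had none. The medians of these 4 marker lists lay between 0.000511 and 0.0733, and their part in the results above was not tested. The 10 loci of the wound and touch list had a median of -0.00408, with 4 above 0. At an unadjusted p under 0.05, 1 was higher (10%) and 0 lower, against 3.57% and 2.36% of all loci. The higher one was RHL41, a zinc finger factor early in stress responses, at 0.48 ± 0.13 with arrays apart in both fractions.

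The fractions were also compared one by one. In total RNA limma called 1 locus (0.00359%), and 2437 (8.76%) had an unadjusted p under 0.05. In polysomal RNA limma called 0, with 620 (2.23%). One spread per locus was shared by all 12 arrays, and the polysomal arrays varied less than the total ones, so these shares depend on that choice: with each fraction fitted alone limma called 0 in both, and 1288 and 1601 loci had an unadjusted p under 0.05. Differences over all loci had an SD of 0.315 in total and 0.213 in polysomal RNA. Across the 27827 loci the total and polysomal differences correlated weakly (Pearson 0.0654, Spearman 0.0676), and 14603 (52.5%) had the same sign, where loci are not independent.

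The called locus was AT1G73450. Its total RNA levels were 4.39, 4.40 and 4.90 at 18 DAP and 2.66, 3.03 and 2.91 at 20 DAP, a fall of 1.7 on the log2 scale (adjusted p of 0.0134). Its polysomal levels of 3.87, 3.96 and 3.98, then 4.05, 4.0 and 4.28, were higher at 20 DAP by 0.17 ± 0.17, without overlap. The change of the polysomal to total difference was 1.87 ± 0.25, with an adjusted p of 0.178, and so the fractions were not shown to move differently. The call ended with each fraction fitted alone (0.989), with all 24 arrays in one model, and without the first (0.104) or the third (0.100) total array of 20 DAP. AT5G37360 showed the reverse arrangement, with total levels of 2.60, 2.85 and 2.57, then 4.07, 3.92 and 3.52, and polysomal levels of 3.94, 3.85 and 4.21, then 4.11, 4.26 and 3.96. The stages were apart in total RNA and overlapped in polysomal RNA, with differences of 1.16 ± 0.18 and 0.11 ± 0.18.

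No locus passed the test of unequal movement of the fractions, in which limma called 0 loci (0%) and 1245 (4.47%) had an unadjusted p under 0.05. Largest among those of lowest p was AT1G20240, whose total levels were 3.41, 4.34 and 3.35, then 1.43, 1.19 and 1.68, while its polysomal levels were 1.80, 1.79 and 1.36, then 1.63, 2.56 and 1.59. Total RNA was separated and polysomal RNA was not, for a change of the polysomal to total difference of 2.55 ± 0.44. EDA11, CYP71A23, CYP71B17 and AT1G33220 had changes of 1.48 to 2.03 in the same direction. In polysomal RNA at 18 DAP the mean levels of these loci and AT1G20240 were 1.55 to 2.39, near the dim end of the arrays. Whether that bears on the changes was not tested. EGY1, a protease of chloroplast membranes, had the opposite sign, at -1.36 ± 0.29, and AT4G32375, AT3G17380, AT5G53420, AT2G03550 and AT1G60830 lay between -0.98 and -1.48. AT4G32375 and AT3G17380 were dim in both fractions, at group means of 1.31 to 2.33 at 18 and 20 DAP.

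**Figure D5:**
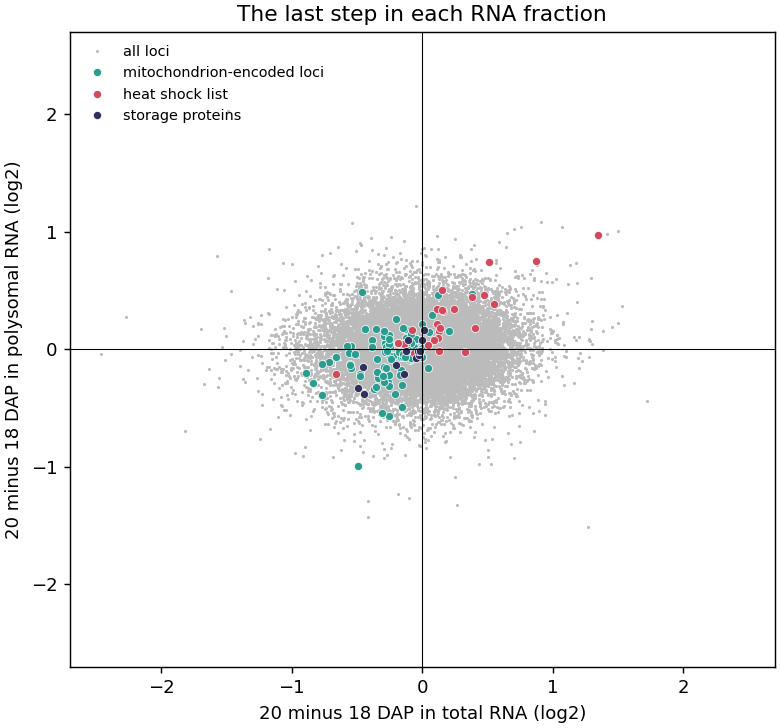
Log2 difference of 20 minus 18 DAP in polysomal RNA (vertical axis) against the same in total RNA (horizontal axis) for all 27827 loci (grey) and for the mitochondrion-encoded (green), heat shock (red) and storage protein loci (dark blue). The cloud is wider in total RNA (SD 0.315) than in polysomal RNA (0.213) and shows little common direction, with ATHSP22.0 and HSP17.6II at the upper right.

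Set beside the step before, the last step was small. It was also the shorter of the steps in days, and neither the differences nor the test below were scaled for that. Between 15 and 18 DAP limma called 6202 loci (22.3%), 3603 up (12.9%) and 2599 down (9.34%), and the SD of the differences over loci was 0.448 against 0.196 in the last step. The test of the difference between the steps called 1277 loci (4.59%), 626 with a more positive (2.25%) and 651 with a more negative (2.34%) last step. Of these 1277, 1268 had been called between 15 and 18 DAP, and their median absolute log2 difference was 0.971 in that step and 0.125 in the last. In that step 594 of them had passed 2-fold, and in the last step 1. These loci were selected for a difference between the steps. The 6202 loci called between 15 and 18 DAP were in turn selected for a difference in that step. Their median absolute difference was 0.631 in that step and 0.106 in the last. Their selection favours a larger value in the step before, so these medians do not test the steps against each other. Because both steps rest on the 18 DAP arrays, their values are given side by side and no correlation between them is drawn.

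The loci with the lowest p of that test had moved steeply by 18 DAP and then differed far less, a pattern that their selection favours. ATSDI1, named for its induction by sulfur deficiency, went from 7.33, 7.52 and 7.42 in total RNA at 15 DAP to 3.27, 3.43 and 3.4 at 18 DAP and was at 4.02, 3.87 and 4.08 at 20 DAP. In polysomal RNA it went from 7.72, 7.87 and 7.90 to 3.88, 4.19 and 3.83, then 3.81, 3.94 and 4.42. The fall of 3.96 on the log2 scale was followed by a difference of 0.36 ± 0.14, in which total RNA stood higher on every array and polysomal RNA overlapped. PDF1, a protein of the epidermis, fell by 3.66 and then differed by -0.01 ± 0.12, AT2G41390 fell by 4.12 and then differed by -0.17 ± 0.11, and ATS3, a seed-specific gene, fell by 2.98 and then differed by -0.14 ± 0.09. For these 4 the adjusted p of the difference between the steps was between 6.67e-09 and 2.98e-08.

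Loci of lowest p in that test that had risen then stood nearly still. SQE6, a squalene epoxidase, rose by 2.04 ± 0.14 between 15 and 18 DAP, from 6.79 to 7.69 over both fractions to 8.98 to 9.31, and stayed at 8.83 to 9.43 at 20 DAP (-0.03 ± 0.10). ASD1, an arabinofuranosidase that trims cell wall sugars, rose by 1.41 ± 0.09 and then differed by -0.02 ± 0.10. AT2G22880 and AT1G23450 rose by 1.97 ± 0.13 and 1.76 ± 0.13 and then differed by -0.05 ± 0.12 and -0.11 ± 0.13. Among oil synthesis genes FAD3 and ACP1, a desaturase and an acyl carrier protein, had fallen by 3.09 and 3.19 and then differed by -0.17 ± 0.13 and -0.08 ± 0.20. FAD2, the desaturase that acts before FAD3, fell by 1.21 and then stood 0.28 ± 0.12 higher, and EXPA15, an expansin, fell by 3.07 and then stood 0.54 ± 0.16 higher, neither of the last values passing the test.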

How the data were processed

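RNA of whole Col-0 seeds was hybridised to one-colour, biotin-labelled arrays, and the deposited values are log2 levels per locus that the authors made with RMA, per the submitters' processing notes. Its version, the array design and the genome build are not given in the sources used here. RMA corrects background, equalises the arrays and summarises probes, so levels are relative to the other transcripts of an array. Arrays have no count depth, and their number limits the precision. No detection calls were used, and no filter was applied.

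Tests used limma 3.58.1 in R 4.3.3 on log2 values, as a stage term plus a fraction term over the 12 arrays (9 residual degrees of freedom), with Benjamini-Hochberg adjustment over 27827 loci and a threshold of 0.05. Fractions, their interaction with stage, and the difference from the step before came from models over groups (12 and 18 arrays). Intervals are 95%. An alternative with each fraction fitted alone was added after the spread was seen. The fits were tested on simulated data.

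Locus names came from a RefSeq table of assembly TAIR10.1, where 27241 of 27827 loci were found. Of all 27827 loci, 182 share their values with another locus. Lists (26, with 436 of 437 hand-entered loci on the arrays) and members were chosen with earlier results of these data known. The naming rule took the 6 lowest p in each direction for the pooled comparison and for the interaction, the 4 lowest p in each direction for the difference from the step before, and 12 loci named whatever their result. Loci outside it were chosen after their values were seen: those called with the intensity trend, members given as examples of a list or of its count, CIB1 and KCS18. Promoter motifs were planned and were not analysed here.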

Additional observations from a re-analysis of the deposited data

Results flagged for a closer look

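The last step differed from the step before at 1277 loci in limma's test of that difference over 18 arrays. The steps differ in length and were not scaled to days. Both steps share the 18 DAP arrays, and without polysomal replicate 1, 2 or 3 of 18 DAP the count was 780, 689 or 811.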

How the results depend on the processing

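Of the pooled comparison, 0 loci were called under 18 of 21 alternatives, 13 with the intensity trend and robust prior, 2 without the dimmest loci (ATHSP22.0, adjusted p 0.0456, and HSP17.6II, 0.0497), and 0 to 1 with single arrays left out. The cause was not tested. All 24 arrays in one model, which shares the wide spread of 12 DAP, gave 170 higher and 112 lower at an unadjusted p under 0.05, 803 in total RNA, 100 in polysomal RNA, 290 for the interaction and 3 heat shock members, and called 0 in total RNA and 158 for the difference of the steps, where ASD1 was lost (adjusted p 0.204).

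In total RNA 2 loci were called on quantile values, 2 with 18 arrays, 6 with the intensity trend, 0 fitted alone and 0 to 3 with single arrays left out (3 without total replicate 1 of 18 DAP and 2 without its replicate 2). Fitted alone, 1288 total and 1601 polysomal loci and 2 total heat shock members had an unadjusted p under 0.05. The interaction called 1 locus on quantile values (AT1G73450, adjusted p 0.0423), and with single arrays left out its unadjusted count ran from 926 to 1972, the latter without total replicate 1 of 18 DAP. The difference of the steps called 847 after median centring, 2021 with the intensity trend and 689 to 1820 with single arrays left out.

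Values near 0 turned sign. On quantile values CRA1 gave 0.018 and OLEO1 0.00551, and with single arrays left out ABI3 ran from -0.111 to 0.0776, ABI5 from -0.0722 to 0.00665, FUS3 from -0.0287 to 0.0913, LEC1 from -0.173 to 0.0384, DOG1 from -0.0614 to 0.0325, HSFA9 from -0.00962 to 0.112, CRA1 from -0.0407 to 0.00546 and OLEO1 from -0.0496 to 0.011. The replicate block called 0 loci in the pooled comparison and 1316 for the difference of the steps, and no named locus crossed the threshold under it. At an unadjusted p under 0.05 it gave 1102 loci higher and 717 lower, against 994 and 656 in the main fit. Same-numbered arrays of 18 and 20 DAP correlated in their deviations at 0.0453 to 0.244, not all over 0.1, though 12 of 12 arrays correlated best with their own number. The numbers were not taken as pairs in the main fit, so any effect shared by a number stays in its residual spread and SE values. The heat shock median stayed between 0.131 and 0.204 and the mitochondrial median between -0.192 and -0.0772 under all 21 alternatives.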
